A study of Mus musculus with 4 samples.

Results

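The mRNAs of the constitutive proteasome were followed in colonic epithelial cells of 2 control mice and 2 *Bmal1* cKO mice. Membership was set by name, as every listed gene called Psma, Psmb, Psmc, Psmd or Psme followed by a number, with the immunoproteasome genes *Psmb8*, *Psmb9* and *Psmb10* left out. This gave 38 of the 16015 listed genes. They are the core alpha ring (7 genes), the core beta ring (7), the ATPases of the base (6), the other base subunits (3), the lid (8), the chaperones that assemble the base (3) and the activators that cap the core (4). *Bmal1* encodes the clock transcription factor BMAL1. In the cKO mice both copies of *Bmal1* carry lox sites (*Bmal1* fl/fl) and Villin-CreERT2, a Cre recombinase that is switched on by tamoxifen and driven by the promoter of an intestinal epithelial gene, removes them. Tamoxifen was injected for 5 consecutive days. The libraries of the other group are labelled WT, and the study's methods name *Bmal1* fl/fl mice as its controls, without stating whether these received tamoxifen. All mice were C57BL/6, 2 to 4 months old and of the same litter, and all 4 drank 3% dextran sulfate sodium (DSS), which injures the colonic epithelium, for 5 days and then water for 2 days before the cells were taken on day 7.

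The proteasome is the protease complex that degrades proteins marked with ubiquitin. Its core is a barrel of stacked rings, in which the outer alpha rings form the gate and the inner beta rings hold the active sites. A regulatory particle sits on the end of the barrel, where the ring of ATPases in its base unfolds the substrate and threads it into the core and the lid removes the ubiquitin chain. In the gut, interferon can exchange the active beta subunits for those of the immunoproteasome. The finished core holds its alpha and beta subunits in equal numbers.

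The values are normalized counts, in which the reads of a gene are scaled by a size factor per library, and each of the 38 members had between 137 and 6263 reads in every library. Counting error alone was thus between 1.26% and 8.54% of a value. The reads on listed genes numbered 10312791 to 14156639 per library. The targeted gene, listed as *Arntl*, had 358 and 342 normalized counts in controls, against 341 and 289 in *Bmal1* cKO mice (log2 fold change -0.16, standard error 0.14, adjusted p = 0.389 from limma). It did not pass the test. Its log2 fold change was -0.31 after the correction described below and -0.38 with scaling by library total, neither past the threshold. Without 1 library it was -0.27 to -0.036. The paper reports, from immunoblot and tissue staining, that BMAL1 protein was lost in the intestinal epithelium of the knockout mice. The directions below are those of the groups as labelled. The mice of a group were close to each other in the members, with a median difference of 0.08 on the log2 scale in controls and 0.14 in *Bmal1* cKO mice, against 0.20 in both groups over all 13983 tested genes. Summed marker genes of the other cell types moved between the groups. The 20 leukocyte markers summed to 18839 and 31838 normalized counts in controls, against 5706 and 5269 in *Bmal1* cKO mice, and 13 of the 19 tested fell. The 15 markers of stroma and vessels summed to 3999 to 16600 in controls, against 543 to 614 in *Bmal1* cKO mice, with Des and Rgs5 each at 0 in 1 *Bmal1* cKO library, and 13 fell. The 5 red blood cell markers summed to 1348 to 2033 against 17.6 to 19.5, and all 5 fell. The 15 epithelial markers were present in each library and summed to 233008 to 305565 against 189607 to 213026, and 2 rose and 6 fell. The part of these cells in the values below was not tested, and in bulk RNA fewer cells of a type and less RNA per cell cannot be told apart.

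The members did not move as a block. Of the 38 members, 17 rose and 8 fell in the *Bmal1* cKO mice by limma (adjusted p under 0.05), and 13 did not pass the test. Without 1 of the libraries, fewer members and fewer of all genes passed, and the median log2 fold change of the members was 0.25 to 0.31. With all 4 libraries 29.0% of all tested genes rose and 27.7% fell. The median log2 fold change was then 0.30 over the members and -0.04 over all genes. A total of 4 members were at least 2-fold higher on the log2 scale (*Psma3*, *Psme4*, *Psmd5* and *Psmd14*) and 0 were at least 2-fold lower, where 15.7% and 23.9% of all genes were. In 22 members both *Bmal1* cKO mice lay above both control mice, in 13 both lay below, and in 3 (*Psmb5*, *Psmc3* and *Psme1*) the groups overlapped. The same lack of overlap was seen above for 40.3% and below for 41.7% of all tested genes.

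**Figure D1:**
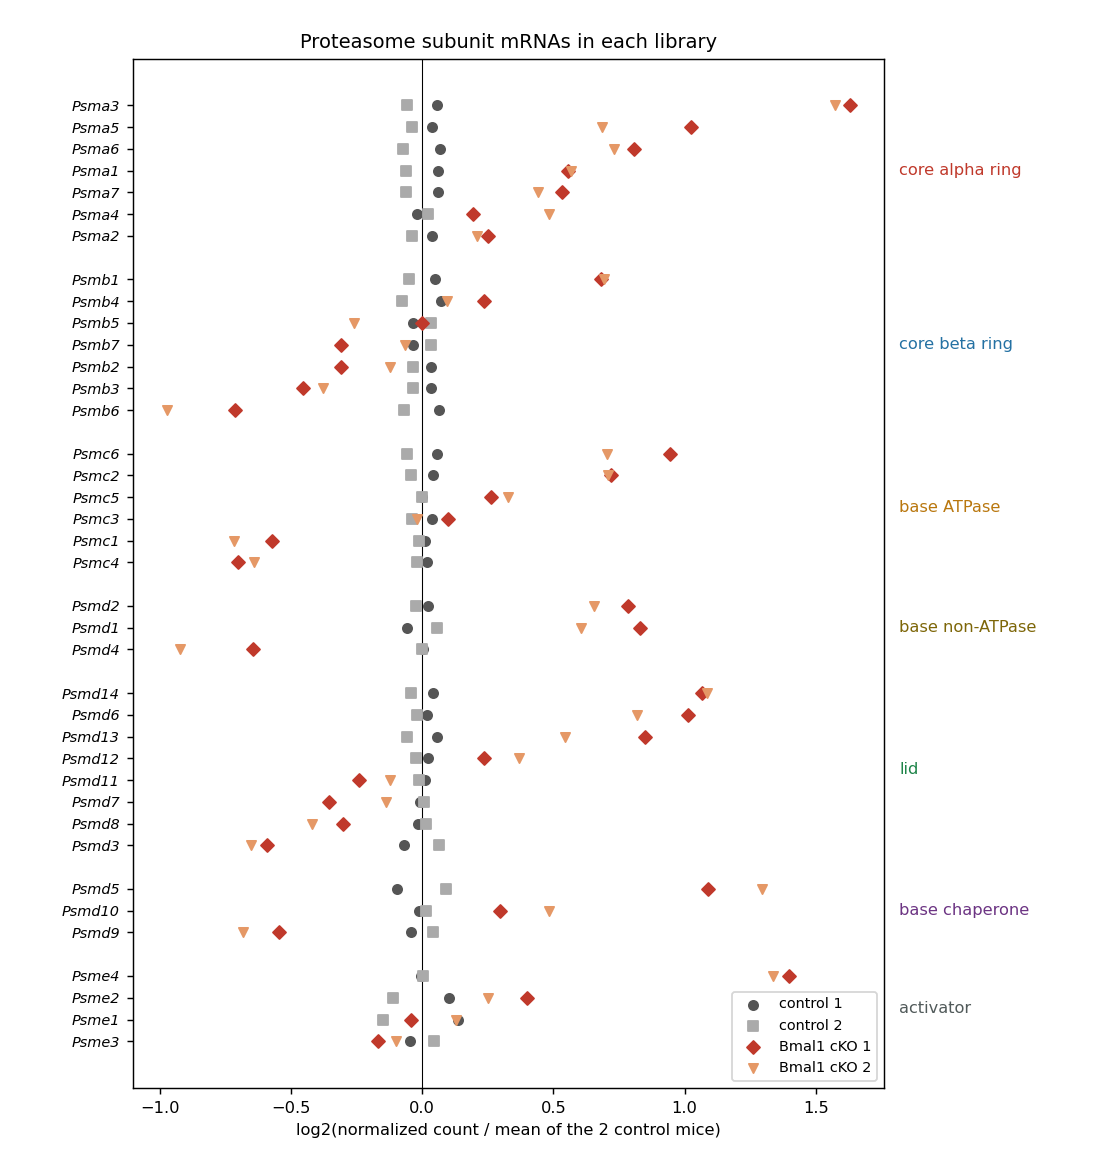
Each row is 1 of the 38 members, grouped by role, and each marker is 1 library. The x axis is the log2 ratio of the normalized count to the mean of the 2 control mice. The alpha ring markers of both Bmal1 cKO mice lie to the right of both control mice in all 7 rows, while the beta ring rows lie on both sides.

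A feature of the whole data set bears on each of these values. The log2 fold change followed the GC content of the exons over all genes, with Spearman's rho -0.62 over 13975 genes, and over the 38 members rho was -0.59. These correlations are across genes of the same 4 libraries and only describe them. Of the 11 members under 45% GC, 7 rose and 0 fell, with a median log2 fold change of 0.69, where of all genes of that class 63.6% rose and 6.05% fell with a median of 0.84. Of the 11 members between 45% and 50% GC, 7 rose and 1 fell, with a median of 0.72, where 32.4% of all genes rose and 13.7% fell with a median of 0.23. Of the 16 members at 50% GC or above, 3 rose and 7 fell, with a median of -0.19, where 6.14% of all genes rose and 49.1% fell with a median of -0.71. The share of members that rose was thus that of all genes in the GC-poorest class. The median of the members was thus somewhat below that of all genes under 45% GC and above it in the GC-richer classes. Each member is therefore given both as deposited and after a correction that subtracts from every library the trend of all genes with GC content and exon length. After it rho was -0.02 over all genes and 0.39 over the members, so among the members the corrected values were higher at higher GC content, with medians of -0.14, 0.22 and 0.24 in the 3 classes. After it 13 members rose and 8 fell, where 17.1% of all genes rose and 17.3% fell, and the member median was 0.06 against -0.03 for all genes. A total of 10 members rose in both and 4 fell in both, where 12.1% and 12.6% of all genes did, and 11 changed sign, where 24.4% of all genes did. The corrected calls rest on each of the libraries. Without 1 library a group holds 1 mouse, and after correction fewer or no members, and fewer or no genes at all, then passed. With 1 library left out the corrected median of the members was 0.029 to 0.087. Of the members called alike before and after correction, all 10 that rose and 0 of the 4 that fell (*Psmb3*, *Psmb6*, *Psmc1* and *Psmd9*) kept their call when the correction used a least-squares curve, which moved the median of all genes to 0.25.

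**Figure D2:**
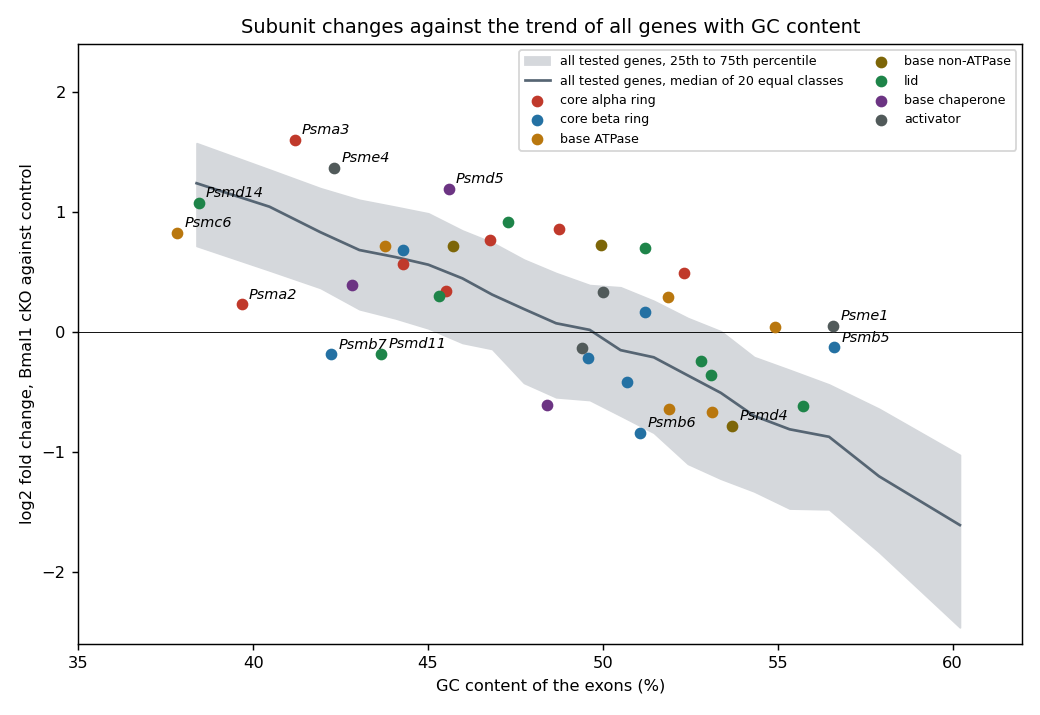
The y axis is the log2 fold change of Bmal1 cKO against control and the x axis the GC content of the exons in percent. Points are the 38 members coloured by role, the line is the median and the band the 25th to 75th percentile of all tested genes in 20 classes of equal size. The line falls from left to right and the members fall with it, with Psma3, Psme4 and Psmd5 among those above the band and Psma2, Psmb7 and Psmd11 among those below it.

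Stretches upstream of the RefSeq start of 5 members are shown because their genes stand at the ends of the core's range in the deposited values or hold the letters that BMAL1 and *Nfe2l1* are known to bind. BMAL1 with its partner binds the E-box CACGTG, and *Nfe2l1* with a small Maf protein binds the antioxidant response element, searched here by its core TGACNNNGC. The stretches are from RefSeq (GRCm38.p6), on the plus strand, with matches to CACGTG, TGACNNNGC or the CCAAT box in capitals on either strand.
Psma3, chr12:70974473-70974592: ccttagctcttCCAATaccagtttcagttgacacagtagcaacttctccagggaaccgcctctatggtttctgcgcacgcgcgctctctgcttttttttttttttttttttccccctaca
Psmb6, chr11:70525237-70525356: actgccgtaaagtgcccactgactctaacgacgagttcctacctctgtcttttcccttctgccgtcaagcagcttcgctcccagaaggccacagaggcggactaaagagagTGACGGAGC
Psmd9, chr5:123228070-123228189: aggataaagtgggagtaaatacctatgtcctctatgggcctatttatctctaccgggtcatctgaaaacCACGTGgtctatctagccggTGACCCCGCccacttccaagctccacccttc
Psme3, chr11:101316093-101316212: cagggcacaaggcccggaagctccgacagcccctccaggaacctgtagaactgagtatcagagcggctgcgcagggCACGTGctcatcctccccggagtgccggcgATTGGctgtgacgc
Psma4, chr9:54950669-54950788: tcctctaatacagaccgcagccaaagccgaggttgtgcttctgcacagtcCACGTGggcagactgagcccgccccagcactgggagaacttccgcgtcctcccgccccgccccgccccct

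*Psma3*, which rose most in the deposited values, holds a CCAAT box and neither of the other motifs. *Psmb6*, which fell most in the deposited values, holds the element core TGACGGAGC next to its start site. *Psmd9*, which fell, holds both an E-box and TGACCCCGC, and *Psme3* and *Psma4* hold an E-box each. The *Psmd9* stretch lies before the RefSeq start and inside the longer span that the annotation used for GC content gives the gene (chr5:123169413-123250131). In the window from 250 bases before to 50 bases after the RefSeq start, 32 of the 38 members had an entry. The E-box letters were in 3 of these (9.38%) and in 8.09% of 27025 genes with an entry, and of the 3 genes *Psmd9* fell and the others did not pass the test. The element core was in 6 (18.8%) and in 14.0% of the genes. It was in 3 of 16 members that rose (*Psme4*, *Psmd12* and *Psmc6*). It was in 2 of 7 that fell (*Psmb6* and *Psmd9*) and in 1 of 9 that did not pass (*Psmb5*). In *Psme4* it lies as near the start as in *Psmb6*. The CCAAT box was in 12 (37.5%) against 41.1%, the AP-1 letters TGANTCA were in 2 (6.25%) against 8.97%, and the GC box GGGCGG was in 21 (65.6%) against 38.2%. All motifs were searched on both strands, and a match does not show that a factor binds there.

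Most genes of the alpha ring rose. Their products form the outer rings of the core, through whose gate substrates enter. Of the 7 alpha genes 5 rose and 0 fell (29.0% and 27.7% of all genes), and 4 rose and 1 fell after correction (17.1% and 17.3%). The median log2 fold change was 0.56 before and 0.48 after correction. Both *Bmal1* cKO mice were above both control mice in all 7, where 40.3% of all tested genes were. *Psma3* had 1927 and 1778 normalized counts in controls, against 5731 and 5514 in *Bmal1* cKO mice (chr12:70974621-70996347, plus strand). This is 304% of the control mean and the largest increase of any member (log2 fold change 1.60, standard error 0.09, adjusted p = 0.000533 from limma). The correction lowered it to 0.65 (SE 0.09, adjusted p = 0.00733), at a GC content of 41.2%. *Psma5* had 1136 and 1079 normalized counts in controls, against 2256 and 1782 in *Bmal1* cKO mice (chr3:108256926-108279974), a rise of 0.86 (SE 0.14, adjusted p = 0.00423) on the log2 scale that the correction left at 0.80 (SE 0.16, adjusted p = 0.0184). The *Bmal1* cKO mice differed from each other in this gene, but both were well above both control mice. *Psma6* rose by 0.77 (SE 0.10, adjusted p = 0.00196) and after correction by 0.48 (SE 0.11, adjusted p = 0.0283), and *Psma7*, with the highest GC content of the ring at 52.3%, rose by 0.49 (SE 0.10, adjusted p = 0.00867) and more so after correction, by 0.80 (SE 0.09, adjusted p = 0.00529). These 4 genes, *Psma3*, *Psma5*, *Psma6* and *Psma7*, rose with and without the correction. With library total scaling *Psma7* did not pass (adjusted p = 0.0766 from limma). Without *Bmal1* cKO 1 their corrected calls were lost, as were those of all genes. Their corrected log2 fold changes were then 0.62, 0.58, 0.37 and 0.77 in this order.

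The remaining alpha genes depended on it. *Psma1* had 1908 and 1752 normalized counts in controls, against 2692 and 2710.1 in *Bmal1* cKO mice, which passed the test (log2 fold change 0.56, standard error 0.09, adjusted p = 0.00457 from limma) and did not after correction, with -0.07 (SE 0.09, adjusted p = 0.562). *Psma4* had 1149 and 1183 normalized counts in controls, against 1334 and 1630.1 in *Bmal1* cKO mice, with a value of 0.34 (SE 0.12, adjusted p = 0.062) that turned to -0.17 (SE 0.10, adjusted p = 0.249), neither past the threshold. *Psma2* had 1417 and 1343 normalized counts in controls, against 1644 and 1594 in *Bmal1* cKO mice, the smallest difference of the ring, at 0.23 (SE 0.09, adjusted p = 0.0721). *Psma2* has the lowest GC content of the ring, 39.7%, and the correction turned it to -0.87 (SE 0.08, adjusted p = 0.00382), past the threshold.

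In the beta ring, 1 of the 7 genes rose and 2 fell (29.0% and 27.7% of all genes), and 1 rose and 3 fell after correction (17.1% and 17.3%). The median log2 fold change was -0.19 before correction. The subunits that carry the active sites are *Psmb6* (caspase-like activity), *Psmb7* (trypsin-like) and *Psmb5* (chymotrypsin-like). *Psmb6* had 1079.7 and 984 normalized counts in controls, against 629.5 and 526 in *Bmal1* cKO mice (chr11:70525367-70527858, plus strand). It fell to 56.0% of the control mean, the largest fall of any member (log2 fold change -0.84, standard error 0.13, adjusted p = 0.00381 from limma). It fell after correction as well, with -0.69 (SE 0.14, adjusted p = 0.0187). *Psmb7* had 632 and 662 normalized counts in controls, against 521 and 618 in *Bmal1* cKO mice (chr2:38588036-38644087, minus strand). Both *Bmal1* cKO mice were lower, but the difference of -0.19 (SE 0.13, adjusted p = 0.244) did not pass the test, while after correction it was -1.03 (SE 0.12, adjusted p = 0.00507). *Psmb5* had 1122 and 1176 normalized counts in controls, against 1148 and 959.7 in *Bmal1* cKO mice (chr14:54614119-54618022, minus strand). The groups overlapped and the difference was -0.13 (SE 0.12, adjusted p = 0.383), while after correction *Psmb5* stood at 0.85 (SE 0.12, adjusted p = 0.00699). The GC contents of these 3 genes are 51.1%, 42.2% and 56.6%, so the gene at the GC-poor end moved down and the gene at the GC-rich end moved up with the correction. The annotation names processed pseudogenes after these genes (*Psmb5*-ps, *Psmb6*-ps, *Psmb6*-ps2 and *Psmb7*-ps2), whose sequences were not compared here. Of the *Psmb5* exons 12.1% lie over Mir686 on the same strand. Of the *Psmb7* exons 11.8% lie over Nek6 on the opposite strand. The counts of these genes are therefore uncertain.

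Among the structural beta genes *Psmb1* had 1699.8 and 1589.9 normalized counts in controls, against 2636 and 2657 in *Bmal1* cKO mice, a rise of 0.69 (SE 0.09, adjusted p = 0.00214) that was 0.05 (SE 0.09, adjusted p = 0.653) after correction. *Psmb3* had 1409 and 1346 normalized counts in controls, against 1005 and 1059.7 in *Bmal1* cKO mice, which fell by both measures, with -0.42 (SE 0.09, adjusted p = 0.0131) and then -0.32 (SE 0.09, adjusted p = 0.0427). *Psmb2* and *Psmb4* stayed below the threshold in both, at -0.22 and 0.17 before and -0.18 and 0.33 after correction. *Psmb6* and *Psmb3* are thus the beta genes that fell in both measures, and no beta gene rose in both. With the least-squares curve neither fall passed (adjusted p from limma 0.0888 and 0.84), and with the robust curve *Psmb3* lost its call without any 1 library and with the block (0.0705) and *Psmb6* without control 1 or either *Bmal1* cKO library.

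The sums of the alpha and beta normalized counts were set against each other within each library, a ratio that no scaling of the library can change. The alpha genes summed to 10525 ± 489.5 normalized counts in controls, against 18397 ± 502 in *Bmal1* cKO mice (SD, n = 2 each), which is 175% of the control mean. The beta genes summed to 9135 ± 323 and 9261 ± 156, which is 101%. The alpha to beta ratio was 1.16 and 1.14 in controls, against 2.001 and 1.972 in *Bmal1* cKO mice, with means of 1.15 ± 0.0128 and 1.99 ± 0.0208 (SD, n = 2 each). The gap between the groups was far wider than that between the mice of a group. The rings also differ in GC content, which the log2 fold change followed over all genes. Its median was 45.5% in the alpha genes and 50.7% in the beta genes. After the GC content and length correction the means were 1.37 ± 0.00853 and 1.67 ± 0.0161, which is closer together but without overlap. Without *Psma3* they were 0.949 ± 0.00844 and 1.38 ± 0.0143, and with both changes 1.09 ± 0.00637 and 1.24 ± 0.0199. The ratio was chosen after its values were seen and is a description, with no test. It compares sums of reads, not numbers of molecules, since the genes differ in length.

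**Figure D3:**
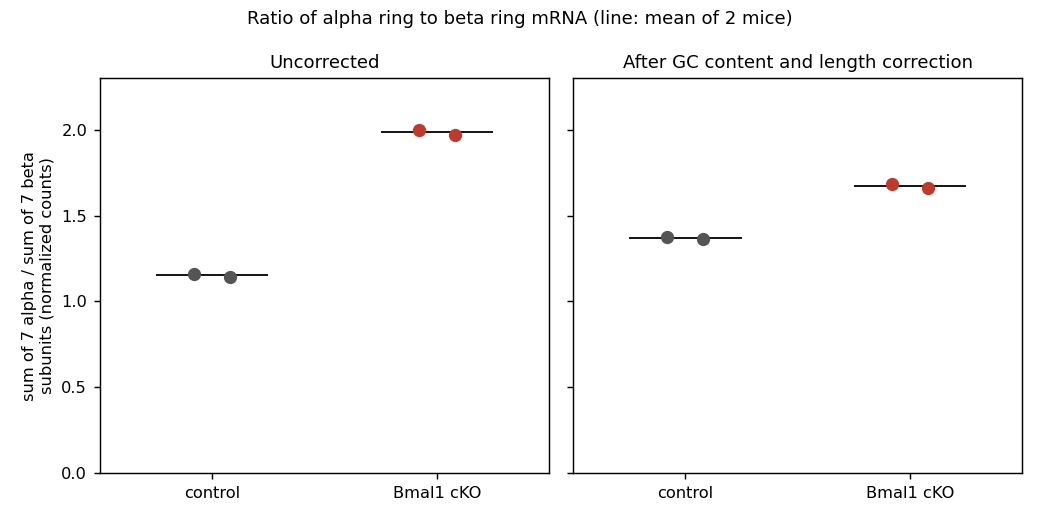
Points are the 4 libraries and the lines the means of the 2 mice of a group. The y axis is the sum of the 7 alpha genes divided by the sum of the 7 beta genes in the same library, uncorrected on the left and after correction on the right. The Bmal1 cKO points lie at 2.001 and 1.972 on the left, above the control points at 1.16 and 1.14, and the distance shrinks on the right.

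The 6 ATPase genes of the base encode the ring that unfolds substrates. A total of 3 rose and 2 fell (29.0% and 27.7% of all genes), and 2 rose and 2 fell after correction (17.1% and 17.3%). The median log2 fold change was 0.17 before and -0.10 after correction, and their sum in the *Bmal1* cKO mice was 114% of that in the control mice. *Psmc6* had 1428 and 1317 normalized counts in controls, against 2643 and 2238 in *Bmal1* cKO mice (chr14:45329788-45349705). It rose by 0.83 (SE 0.12, adjusted p = 0.00287), and, at the lowest GC content of all members (37.8%), it turned to -0.46 (SE 0.11, adjusted p = 0.0316) after correction, the widest shift of any member. *Psmc2* had 1172 and 1106 normalized counts in controls, against 1877 and 1861 in *Bmal1* cKO mice, a rise of 0.71 (SE 0.09, adjusted p = 0.00191) that was 0.03 (SE 0.09, adjusted p = 0.791) after correction. *Psmc5* had 1159 and 1159.6 normalized counts in controls, against 1389.6 and 1453 in *Bmal1* cKO mice, and it rose by both measures, with 0.29 (SE 0.09, adjusted p = 0.035) and 0.59 (SE 0.08, adjusted p = 0.00742). Its uncorrected call was lost with DESeq2 on the recovered reads (adjusted p = 0.0781), with the block, with library total scaling (adjusted p = 0.537) and without any 1 library. *Psmc3* had 1734 and 1647 normalized counts in controls, against 1810.3 and 1667 in *Bmal1* cKO mice, where the groups overlapped at 0.04 (SE 0.09, adjusted p = 0.734), and the correction moved it to 0.71 (SE 0.09, adjusted p = 0.00605). Of its exons 8.25% lie over Slc39a13 on the opposite strand.

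The other ATPases fell. *Psmc1* had 1401 and 1379 normalized counts in controls, against 934 and 845 in *Bmal1* cKO mice (log2 fold change -0.65, standard error 0.10, adjusted p = 0.00368 from limma), and the gene, whose product helps to open the gate of the core, fell after correction too, with -0.39 (SE 0.10, adjusted p = 0.0376). *Psmc4* had 1288 and 1252 normalized counts in controls, against 781 and 814 in *Bmal1* cKO mice (log2 fold change -0.67, standard error 0.09, adjusted p = 0.00255 from limma), and did not pass the test after correction, with -0.24 (SE 0.09, adjusted p = 0.0882). The corrected fall of *Psmc1* was lost without any 1 library (adjusted p from limma 0.0704 to 0.145) and with the least-squares curve (0.66).

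In the rest of the base, the scaffold genes and the ubiquitin receptor moved apart. *Psmd1* and *Psmd2* encode the largest subunits, which form the scaffold of the base. *Psmd2* had 3793 and 3682 normalized counts in controls, against 6442 and 5887 in *Bmal1* cKO mice (chr16:20651652-20663414). It rose by 0.72 (SE 0.10, adjusted p = 0.0025) and stayed at 0.72 (SE 0.09, adjusted p = 0.00656) after correction. *Psmd1* had 2093 and 2268 normalized counts in controls, against 3878 and 3321 in *Bmal1* cKO mice, a rise of 0.72 (SE 0.11, adjusted p = 0.00415) that was 0.22 (SE 0.11, adjusted p = 0.171) after correction. *Psmd4*, the gene of a subunit that binds ubiquitin chains, had 1126 and 1123 normalized counts in controls, against 719 and 593 in *Bmal1* cKO mice (chr3:95032694-95042614). Its log2 fold change was -0.78 (SE 0.12, adjusted p = 0.00424), a fall, and it did not pass the test after correction, with -0.27 (SE 0.12, adjusted p = 0.125). *Psmd2*, at a GC content of 49.95%, sat near the point where the trend of all genes crosses 0, and the correction moved its value by less than its standard error.

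Of the 8 lid genes 4 rose and 2 fell (29.0% and 27.7% of all genes), and 2 rose and 1 fell after correction (17.1% and 17.3%), with a median of 0.06 before and 0.10 after it. *Psmd14*, the gene of the deubiquitinase that cuts the ubiquitin chain from the substrate, had 1159 and 1094 normalized counts in controls, against 2361 and 2388 in *Bmal1* cKO mice (chr2:61711694-61800376, plus strand). It was 211% of the control mean (log2 fold change 1.08, standard error 0.09, adjusted p = 0.000666 from limma), and after correction, at a GC content of 38.4%, its log2 fold change was -0.14 (SE 0.08, adjusted p = 0.238). Both *Bmal1* cKO mice were far above both control mice, and the value after correction did not pass the test. *Psmd6* had 1120.2 and 1092 normalized counts in controls, against 2233 and 1952 in *Bmal1* cKO mice, and rose in both measures, by 0.92 (SE 0.10, adjusted p = 0.00146) and 0.62 (SE 0.11, adjusted p = 0.0136). *Psmd13* had 1342 and 1239 normalized counts in controls, against 2324 and 1884 in *Bmal1* cKO mice, and rose likewise by 0.70 (SE 0.13, adjusted p = 0.00724) and 0.85 (SE 0.13, adjusted p = 0.00884), with 10.1% of its exons over Sirt3 on the opposite strand. *Psmd6* and *Psmd13*, both structural lid genes, were thus the lid genes that rose with and without the correction. *Psmd12*, another structural lid gene, had 951 and 923 normalized counts in controls, against 1103 and 1211 in *Bmal1* cKO mice, which rose by 0.30 (SE 0.10, adjusted p = 0.0448). It lost the call with the correction, at -0.23 (SE 0.09, adjusted p = 0.101), and with edgeR and DESeq2 (adjusted p = 0.0556 and 0.105).

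The other lid genes lay lower in the *Bmal1* cKO mice. *Psmd3* had 1881 and 2063 normalized counts in controls, against 1308 and 1254 in *Bmal1* cKO mice (log2 fold change -0.62, standard error 0.09, adjusted p = 0.0038 from limma), a fall that the correction turned to 0.15 (SE 0.09, adjusted p = 0.249) at a GC content of 55.7%. *Psmd11*, a structural lid gene, had 1221 and 1201 normalized counts in controls, against 1024 and 1111 in *Bmal1* cKO mice. Its difference of -0.18 (SE 0.09, adjusted p = 0.148) did not pass the test, and after correction it fell, with -0.88 (SE 0.09, adjusted p = 0.00414). *Psmd8* had 1473 and 1502 normalized counts in controls, against 1207 and 1112 in *Bmal1* cKO mice, a fall at -0.36 (SE 0.09, adjusted p = 0.022), and stood at 0.06 (SE 0.09, adjusted p = 0.608) after correction. The deposited call of *Psmd8* was lost without any 1 library. *Psmd7*, the inactive partner of *Psmd14*, stayed below the threshold at -0.25 and 0.14. No lid gene among the members fell in both measures.

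**Figure D4:**
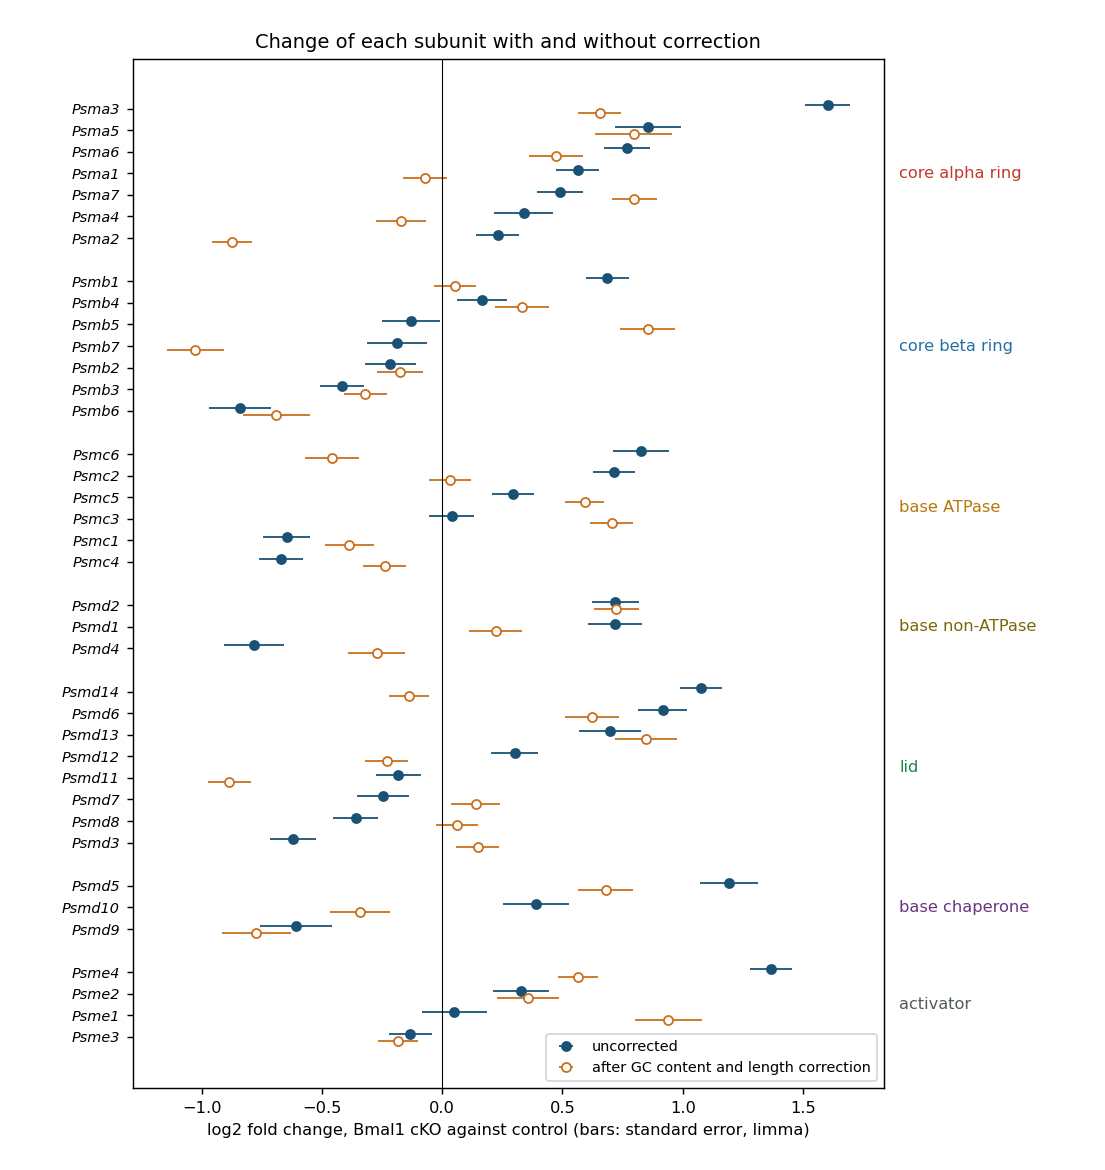
Filled points are log2 fold changes of Bmal1 cKO against control as deposited, open points the same after the GC content and length correction, and bars the standard errors from limma. Rows are the 38 members by role. The pairs of points are close for Psma5, Psmd2 and Psmb6 and lie on opposite sides of 0 for Psmc6, Psmd14, Psma2 and Psmb5.

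The chaperones of the base are not part of the finished complex. *Psmd5* had 622 and 706 normalized counts in controls, against 1412 and 1627 in *Bmal1* cKO mice (chr2:34849734-34874968), a rise of 1.19 (SE 0.12, adjusted p = 0.00111) that remained at 0.68 (SE 0.11, adjusted p = 0.0119). *Psmd9* had 288 and 306 normalized counts in controls, against 204 and 185 in *Bmal1* cKO mice, a fall with a log2 fold change of -0.61 (SE 0.15, adjusted p = 0.0188) that remained at -0.77 (SE 0.14, adjusted p = 0.0151). Its deposited call was lost without any 1 library (adjusted p from limma 0.0574 to 0.102), and its corrected call with the least-squares curve (0.063) and without control 2 or either *Bmal1* cKO library (0.0531 to 0.0841). Of the *Psmd9* exons 25.5% lie over Gm26745 on the opposite strand, and whether the counting used strand is not stated. *Psmd10*, the gene of the oncoprotein gankyrin, had 273 and 278 normalized counts in controls, against 338 and 385 in *Bmal1* cKO mice, at 0.39 (SE 0.14, adjusted p = 0.0574) and then -0.34 (SE 0.12, adjusted p = 0.0869). The 3 chaperone genes thus went in different directions, *Psmd5* up and *Psmd9* down in both measures.

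The activators cap the core in place of the regulatory particle. *Psme4*, the gene of a large activator also known for the degradation of acetylated histones, had 2187 and 2201 normalized counts in controls, against 5785 and 5547 in *Bmal1* cKO mice (chr11:30771726-30880361, plus strand). It was 258% of the control mean (log2 fold change 1.37, standard error 0.09, adjusted p = 0.000533 from limma), and rose after correction too, with 0.57 (SE 0.08, adjusted p = 0.00844). *Psme1* and *Psme2* encode the partners of the interferon-induced activator. *Psme1* had 1217 and 997 normalized counts in controls, against 1075 and 1211 in *Bmal1* cKO mice, where the groups overlapped at 0.05 (SE 0.13, adjusted p = 0.758), while after correction it stood at 0.94 (SE 0.14, adjusted p = 0.00835). *Psme2* had 1256 and 1084 normalized counts in controls, against 1543 and 1394 in *Bmal1* cKO mice, with 0.33 (SE 0.12, adjusted p = 0.0567) before and 0.36 (SE 0.13, adjusted p = 0.0824) after correction. *Psme3*, the gene of a nuclear activator, had 2142 and 2279 normalized counts in controls, against 1965 and 2065 in *Bmal1* cKO mice, with -0.13 (SE 0.09, adjusted p = 0.249) and -0.18 (SE 0.08, adjusted p = 0.14). *Psme4* was thus the only activator gene that rose in both measures.

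The deposited scaling sets the median of all genes near 0, and a scaling by the total of each library moved that median to -0.26. With it 14 members rose and 13 fell, where 22.1% of all genes rose and 34.9% fell. *Psma7*, *Psmc5* and *Psmd12* then no longer passed as higher, and *Psmb2*, *Psmb7*, *Psmd7*, *Psmd11* and *Psme3* passed as lower. As a share of all normalized counts of a library, the alpha genes made up 0.0933% and 0.0849% in controls, against 0.137% and 0.129% in *Bmal1* cKO mice, so the sum was higher on both scales. The beta genes made up 0.0804% and 0.0743% against 0.0683% and 0.0656%, and so were lower on this scale and level on the deposited one. All 38 members made up 0.463% and 0.437% against 0.536% and 0.505%. The count tests on the recovered reads gave much the same calls as limma, with 16 members higher and 8 lower by edgeR, where 27.6% and 27.3% of all genes were called, and 15 and 8 by DESeq2, where 26.6% and 27.2% were.

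Genes that work with the proteasome were taken from fixed lists. Of 49 listed genes 48 were tested, of which 19 rose and 15 fell (29.0% and 27.7% of all genes), and after correction 12 rose and 12 fell (17.1% and 17.3%). The immunoproteasome genes, which interferon induces, did not pass limma's test in the deposited values. *Psmb8* had 206 and 78.8 normalized counts in controls, against 176 and 132 in *Bmal1* cKO mice (log2 fold change 0.26, standard error 0.47, adjusted p = 0.66 from limma). *Psmb9* had 247 and 158 normalized counts in controls, against 492 and 279.8 in *Bmal1* cKO mice (log2 fold change 0.90, standard error 0.34, adjusted p = 0.0684 from limma). *Psmb10* had 868 and 871 normalized counts in controls, against 813 and 600.1 in *Bmal1* cKO mice (log2 fold change -0.32, standard error 0.16, adjusted p = 0.147 from limma). The values overlapped for *Psmb8* and were spread in *Psmb9*. *Psmb9* passed as higher with DESeq2 (adjusted p = 0.0425) and with the library number as a block in limma (adjusted p = 0.00701), and *Psmb10* as lower with library total scaling (adjusted p = 0.0389). After correction *Psmb9* and *Psmb10* rose (17.1% of all genes), with 1.43 (SE 0.33, adjusted p = 0.0268) and 0.60 (SE 0.16, adjusted p = 0.0369).

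Both subunit genes of the regulatory particle that carry other names fell, before and after correction (27.7% and 17.3% of all genes). *Adrm1*, which encodes a ubiquitin receptor of the base like *Psmd4*, had 1217 and 1265 normalized counts in controls, against 495 and 466 in *Bmal1* cKO mice (log2 fold change -1.37, standard error 0.10, adjusted p = 0.000543 from limma). The small lid subunit gene *Sem1* fell as well, with -1.05 (SE 0.13, adjusted p = 0.0019). After correction they stood at -0.51 (SE 0.09, adjusted p = 0.0136) and -2.17 (SE 0.12, adjusted p = 0.00276). *Pomp*, which encodes the maturation factor of the core, rose. *Pomp* had 1006 and 939 normalized counts in controls, against 2084 and 1595 in *Bmal1* cKO mice, at 0.91 (SE 0.15, adjusted p = 0.0047) on the log2 scale before and 0.84 (SE 0.15, adjusted p = 0.0133) after correction. Of the 8 tested assembly and inhibitor genes 3 rose and 0 fell (29.0% and 27.7% of all genes), and 2 rose and 1 fell after correction (17.1% and 17.3%). *Ecpas*, the adaptor that holds the core and the regulatory particle together, rose most of these in the deposited values, by 0.94 (SE 0.09, adjusted p = 0.000844), and stood at 0.12 (SE 0.08, adjusted p = 0.297) after correction.

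All 5 enzymes bound to the proteasome that trim or extend ubiquitin chains, or reduce disulfides, rose in the deposited values (29.0% of all genes). All 5 have a GC content under 45%, a class in which 63.6% of all genes rose. After correction 0 of 5 rose and 1 fell (17.1% and 17.3% of all genes). *Uchl5* did not pass with DESeq2 (adjusted p = 0.0737) or library total scaling (adjusted p = 0.241). *Ube3a* had 1055 and 930.1 normalized counts in controls, against 2919 and 3414 in *Bmal1* cKO mice, the largest rise of the list (log2 fold change 1.67, standard error 0.12, adjusted p = 0.000546 from limma), and stood at 0.22 (SE 0.11, adjusted p = 0.161) after correction. The ubiquitin genes moved apart. *Ubb*, a polyubiquitin gene, had 5217 and 5626 normalized counts in controls, against 669.6 and 943 in *Bmal1* cKO mice, with -2.77 (SE 0.17, adjusted p = 0.000533) and -1.99 (SE 0.17, adjusted p = 0.00339) after correction. *Rps27a*, which encodes ubiquitin fused to a ribosomal protein, rose by 1.07 (SE 0.15, adjusted p = 0.00284). Of the ubiquitin-activating enzymes *Uba6* rose by 1.53 (SE 0.09, adjusted p = 0.000533) and was 0.20 (SE 0.09, adjusted p = 0.137) after correction, while *Uba1* did not pass the test.

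Among the 9 shuttle genes, which carry ubiquitinated substrates to the proteasome, 4 rose and 4 fell (29.0% and 27.7% of all genes), against 2 and 2 after correction (17.1% and 17.3%). *Zfand2a*, a stress-induced shuttle, fell most, with -1.38 (SE 0.22, adjusted p = 0.0042) and after correction -1.13 (SE 0.21, adjusted p = 0.0151). Among the 7 genes of the segregase p97, which extracts substrates, and its cofactors 4 rose and 2 fell, against 1 and 2 after correction (the same shares of all genes apply), with the widest change in *Nsfl1c* at -1.48 (SE 0.11, adjusted p = 0.000566) and -1.87 (SE 0.11, adjusted p = 0.00276) after correction. The transcription factor *Nfe2l1* induces the subunit genes when the proteasome is inhibited. *Nfe2l1* had 1934 and 2102 normalized counts in controls, against 1206 and 1077 in *Bmal1* cKO mice (log2 fold change -0.82, standard error 0.10, adjusted p = 0.00206 from limma), a fall that was -0.15 (SE 0.09, adjusted p = 0.253) after correction. *Nfe2l2*, its relative in the oxidative stress response, had 1952 and 2207 normalized counts in controls, against 2123 and 2307 in *Bmal1* cKO mice, with 0.09 (SE 0.11, adjusted p = 0.479) and -0.50 (SE 0.10, adjusted p = 0.0169). Of the 8 regulators 1 rose and 5 fell (29.0% and 27.7% of all genes), against 3 and 2 after correction (17.1% and 17.3%), and the small Maf gene *Maff* changed most, with -3.10 (SE 0.22, adjusted p = 0.000542) and -2.13 (SE 0.20, adjusted p = 0.00381) after correction.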

How the data were processed

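RNA of colonic epithelial cells from 2 control and 2 *Bmal1* cKO mice was sequenced. The study gives 2 mice per group, so each library is taken as 1 mouse. STAR alignments to GRCm38 and DESeq2 size factors underlie the table the authors made. The counter and the annotation release are not given in the sources used here. The deposited value of each library is a signal, the reads counted on a gene over the library's size factor, and 100% of the values were whole multiples of 1 read (tolerance 0.02) in each library. The file also holds columns that were not used here, in which the authors gave their own comparison as a log2 fold change and its error, a score (a test statistic), and a p-value before and after adjustment.

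On a log2(value + 1) scale, which shrinks the change of low genes, 13983 genes (mean 10 or more) were fitted together with limma 3.58.1 (R 4.3.3). A trend of the variance with the mean was allowed, tests were two-sided, p-values were adjusted by Benjamini-Hochberg, and the threshold was 0.05. GC content and exon length came from the GENCODE M21 annotation and transcripts. The correction subtracted robust loess curves (span 0.3, degree 1) of each library's deviation from the gene mean. Alternatives were pseudocounts of 0.5 and 5, no filter, a mean of at least 50, scaling by library total, edgeR 4.0.16 and DESeq2 1.42.0 on the recovered reads, a block for the library number and leaving out each library. A least-squares correction and the correction without each library were added after the data were seen. Members follow from a rule on gene names, and both this rule and the lists were chosen with earlier results of these data known. Values in every library are given for the 3 catalytic genes, the highest and lowest change in each role and members whose call changed with the correction, edgeR or DESeq2. The related genes named were fixed with the lists or changed most in them, except *Sem1*, *Rps27a*, *Uba1* and *Uchl5*, named after their values were seen. A gene of the lists is not reported here. No permutation test over 2 libraries per group can reach the threshold.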

Additional observations from a re-analysis of the deposited data

How the results depend on the processing

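The GC content and length correction changed the sign of *Psma1* (-0.072), *Psma2* (-0.87), *Psma4* (-0.17), *Psmb5* (0.85), *Psmc6* (-0.46), *Psmd10* (-0.34), *Psmd12* (-0.23), *Psmd14* (-0.14), *Psmd3* (0.15), *Psmd7* (0.14) and *Psmd8* (0.061), and adding the block to it gave the same signs and values. It gave 12 related genes higher where 19 were called without it, and a median log2 fold change of 0.057 for all members, -0.0096 for the core, -0.10 for the ATPases and 0.10 for the lid, where the deposited values gave 0.30, 0.28, 0.17 and 0.060. With a least-squares curve, which moved the median of all genes to 0.25, 18 members rose and 3 fell. Of all genes 5560 of 13975 were called in that setting, against 4809 with the robust curve. With the least-squares curve 8 related genes fell and the lid median was 0.39. The signs turned for *Psma2* (-0.63), *Psmb2* (0.22), *Psmb5* (1.30), *Psmc4* (0.072), *Psmc6* (-0.20), *Psmd10* (-0.00093), *Psmd12* (-0.0020), *Psmd3* (0.45), *Psmd4* (0.022), *Psmd7* (0.44), *Psmd8* (0.34) and *Psme3* (0.098). Scaling by library total gave 13 members lower, medians of 0.072, 0.059, -0.059 and -0.17 in the same order, and turned *Psmb4* (-0.059), *Psmc3* (-0.19) and *Psme1* (-0.17). The cause of these differences was not tested.

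Leaving out each library in turn gave 14 to 15 members higher and 5 to 6 lower, 13 to 15 related genes higher and 12 to 16 lower, and medians of 0.25 to 0.31 for all members, 0.25 to 0.33 for the core, 0.15 to 0.19 for the ATPases and -0.0033 to 0.12 for the lid. *Psmc5*, *Psmd8*, *Psmd9* and *Psmd12* lost their calls without any 1 library (adjusted p from limma between 0.0524 and 0.163), *Psmb3* without control 1 or either *Bmal1* cKO library (0.051 to 0.0685), *Psma7* without *Bmal1* cKO 1 (0.0618) and *Psmd13* without control 2 (0.0583), while *Psma4* was called without *Bmal1* cKO 1 (0.0413). With the correction and 1 library left out, 0 to 13 members rose and 0 to 5 fell, and 0 to 8 related genes rose and 0 to 12 fell. The zeros were those of limma without *Bmal1* cKO 1, where 21 members and 4858 genes had an unadjusted p under 0.05. The medians were then 0.029 to 0.087, -0.074 to 0.060, -0.15 to -0.056 and 0.070 to 0.092. For the members whose sign was not the same in each of these, the log2 fold change as deposited and then corrected ranged over 0.50 to 0.62 and -0.15 to 0.0086 for *Psma1*, 0.19 to 0.27 and -0.91 to -0.84 for *Psma2*, 0.19 to 0.48 and -0.28 to -0.066 for *Psma4*, -0.26 to -0.00073 and 0.73 to 0.97 for *Psmb5*, 0.67 to 0.76 and -0.015 to 0.083 for *Psmc2*, -0.020 to 0.099 and 0.66 to 0.77 for *Psmc3*, 0.71 to 0.95 and -0.58 to -0.33 for *Psmc6*, 0.30 to 0.48 and -0.39 to -0.31 for *Psmd10*, 0.23 to 0.37 and -0.27 to -0.19 for *Psmd12*, 1.03 to 1.12 and -0.17 to -0.10 for *Psmd14*, -0.69 to -0.55 and 0.092 to 0.22 for *Psmd3*, -0.36 to -0.14 and 0.033 to 0.24 for *Psmd7*, -0.42 to -0.30 and 0.021 to 0.11 for *Psmd8* and -0.092 to 0.19 and 0.79 to 1.10 for *Psme1*.

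Control 1 and *Bmal1* cKO 1 share only a number, and deviations of same-numbered libraries had a correlation of -0.09 over 2 pairs. The replicate block gave 16 members higher and 8 lower in limma, losing *Psmc5* (adjusted p = 0.0612) and *Psmd12* (0.0695) and adding *Psme2* (0.0435). Of all genes 7688 of 13983 were called with the block, against 7930 without it. With the correction and the block 14 members rose and 7 fell, and 9 related genes rose, where 4387 of 13975 genes were called. The pseudocounts and the absence of a filter changed no member's call, and the stricter filter added *Psmd10*. edgeR gave 16 members higher and 8 lower, losing *Psmd12*, and DESeq2 15 and 8, losing *Psmd12* and *Psmc5*. Each member had 137 reads or more in each library, and each group had 2 libraries.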
